A study of Mus musculus with 6 samples.

Results

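The Dlk1-Dio3 imprinted domain is a stretch of mouse chromosome 12 that was read here through its DNA methylation in the hypothalamus, the brain region that controls feeding and energy use. The domain was taken as every array probe between positions 110600000 and 111600000 of chromosome 12 (genome build mm9), which gave 76 of the 174638 probes of the array. All 76 probes lay in 10 regions, a region being a run of 3 or more probes with starts at most 500 bp apart, out of 22574 such regions on the array. The 5 genes that mark the domain are Dlk1, Meg3, Rtl1, Mirg and Dio3. Probes were taken by position alone, without a measured value. The domain members were, however, chosen with earlier results of these data known.

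Imprinted genes are expressed from the chromosome of one parent only, and the choice is set by DNA methylation laid down in the germ line. In the Dlk1-Dio3 domain the chromosome inherited from the father expresses the protein-coding genes Dlk1, Rtl1 and Dio3, and the chromosome inherited from the mother expresses the non-coding RNAs Meg3, Rian and Mirg. Dlk1 encodes a membrane protein related to the Notch ligands that restrains fat cell differentiation, Rtl1 derives from a retrotransposon and acts in the placenta and in muscle, and Dio3 encodes the deiodinase that inactivates thyroid hormone. Mirg, the last of the long maternal transcripts, hosts a large cluster of microRNAs. An antibody against methylated cytosine pulls down methylated DNA of both parental chromosomes together, so the arrays do not separate the alleles.

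Hypothalamic DNA came from 16-week-old mouse offspring in 2 groups of 3 arrays. Mothers of the first group received inulin, a fermentable plant fibre, and mothers of the second group were obese, a group that other labels name by a high-fat diet. Strain, sex, litter, the number of animals behind an array and the diet of the inulin mothers beyond inulin are not given in the labels. Names of the deposited inulin arrays also carry the obesity group's abbreviation, which the labels do not explain. Offspring of lean mothers were not analysed here, so each difference below is between the inulin and the obesity group only. Methylated DNA obtained by immunoprecipitation (MeDIP) was labelled with Cy5 and the input DNA of the same sample with Cy3, and both were hybridised to 1 array. DNA arrays give no expression, so the labelled tissue was not checked through marker genes.

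The value used below is the log2 ratio of MeDIP over input signal, centred on each array's median. A ratio of 0 is therefore the middle probe of that array. A positive ratio means more MeDIP signal relative to input than at that middle probe. The height of a ratio also depends on how many CpG sites a fragment holds and on the probe itself, so the order of the regions is not an order of methylation levels. Between 94.4% and 96.4% of all probes on an array had input signal well above background, and between 77.3% and 85.7% had such MeDIP signal. The interquartile range of the ratios over all probes averaged 1.38 ± 0.0076 over the 3 inulin arrays but 1.73 ± 0.14 over the 3 obesity arrays (SD, n = 3 each). The 3 inulin arrays shared 1 slide, obesity arrays 1 and 3 shared another, and obesity array 2 was on one of its own, per the file headers. No slide held both groups, so slide and group cannot be told apart.

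CpG sites are where mammalian DNA methylation mostly sits, and their number differs among the promoters of the domain. The 250 bases before the start of 4 of the 5 genes are shown because MeDIP captures DNA through its methylated CpG sites. They come from RefSeq on build GRCm38.p6, which is not the build of the array, so the windows are not placed on the probes. All 4 lie on the + strand, at chr12:109452573-109452822 for Dlk1, chr12:109540746-109540995 for Meg3, chr12:109734731-109734980 for Mirg and chr12:110278980-110279229 for Dio3. Capitals mark each CG, the motif searched, which reads the same on both strands.
Dlk1: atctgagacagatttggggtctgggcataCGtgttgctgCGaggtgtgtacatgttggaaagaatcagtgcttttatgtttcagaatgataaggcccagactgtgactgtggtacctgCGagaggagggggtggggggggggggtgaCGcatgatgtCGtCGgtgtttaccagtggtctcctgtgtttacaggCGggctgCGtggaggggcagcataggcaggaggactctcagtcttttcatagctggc
Meg3: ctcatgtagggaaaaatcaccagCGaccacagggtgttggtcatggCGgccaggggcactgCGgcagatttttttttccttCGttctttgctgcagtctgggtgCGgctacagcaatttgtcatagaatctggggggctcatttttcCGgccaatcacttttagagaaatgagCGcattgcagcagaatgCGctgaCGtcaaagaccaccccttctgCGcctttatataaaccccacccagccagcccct
Mirg: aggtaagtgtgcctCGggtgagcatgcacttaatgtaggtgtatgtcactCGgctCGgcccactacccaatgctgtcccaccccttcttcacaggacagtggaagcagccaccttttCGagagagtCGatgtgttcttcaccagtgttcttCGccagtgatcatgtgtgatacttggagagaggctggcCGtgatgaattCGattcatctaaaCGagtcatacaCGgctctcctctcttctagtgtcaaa
Dio3: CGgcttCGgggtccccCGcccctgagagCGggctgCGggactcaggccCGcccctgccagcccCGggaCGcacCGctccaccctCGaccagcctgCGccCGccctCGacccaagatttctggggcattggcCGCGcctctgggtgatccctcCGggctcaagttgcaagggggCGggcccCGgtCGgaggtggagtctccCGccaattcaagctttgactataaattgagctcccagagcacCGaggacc
The Dio3 window held 21 CG with 69.6% G or C, and 83.7% of 32851 RefSeq promoter windows of the same length held fewer. Meg3 and Mirg held 10 CG each, above 62.2% of the windows, and Dlk1 held 8, above 57.0%. The median window held 6 CG, and 92.1% held at least 1. Rtl1 was matched to no entry. Between Dlk1 and Dio3, RefSeq places 61 microRNA genes and 19 small nucleolar RNA genes.

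The array sampled the domain thinly. Its 10 regions covered 15026 bp, or 1.5% of the window, and the widest stretch without a region was 422.195 kb, after the region near Mirg. Regions are numbered here in order along the chromosome. A region was called near a gene when its centre lay within 0.05 Mb of the gene's rounded position, which put region 1 near Dlk1 (8.87 kb), regions 2 to 7 near Meg3 and Rtl1, region 8 near Mirg (27.3 kb) and region 10 near Dio3 (16.9 kb). Meg3 and Rtl1 share the rounded position 110.8 Mb, so regions 2 to 7 cannot be told apart between them. Region 9 had no member within that distance. An annotation of build mm9 was not used here, so exons, introns and promoters are not assigned to the probes.

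In both groups most of the domain lay above the middle of the array. The mean ratio over the 6 arrays was above 0 in 7 of the 10 regions, and its median over the 10 was 0.26, beside -0.06 over all regions and -0.05 over the 678 other regions of chromosome 12. Among all regions the quartiles were -0.50 and 0.31, and 8 of the 10 domain regions lay above the median of all. The region of highest ratio was region 4, near Meg3 and Rtl1, and the next was region 10, near Dio3. The region of lowest ratio was region 3, also near Meg3 and Rtl1. These levels describe the domain and carry no test.

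Between offspring of inulin mothers and offspring of obese mothers, no domain region passed the test on the ratio. In the limma fit over all regions with Benjamini-Hochberg adjustment, 0 of 10 domain regions had an adjusted p under 0.05, where 7.42% of all regions did. Those calls elsewhere were 1267 higher and 408 lower in the inulin group, and 485 higher and 426 lower with the arrays on an equal scale. With the slide as a random block, 0 of the 22574 regions passed. Without adjustment, 1 of 10 had a p under 0.05, against 28.6% of all regions. The differences went both ways, with 5 regions higher and 5 lower in the inulin group. Their median was 0.0041 on the log2 scale, beside 0.033 over all regions. The 95% intervals of the 10 differences ran from -0.36 at their lowest to 0.49 at their highest bound. These p-values measure the spread between 3 and 3 arrays, which may be technical, since the labels do not say that the samples came from separate litters.

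**Figure D1:**
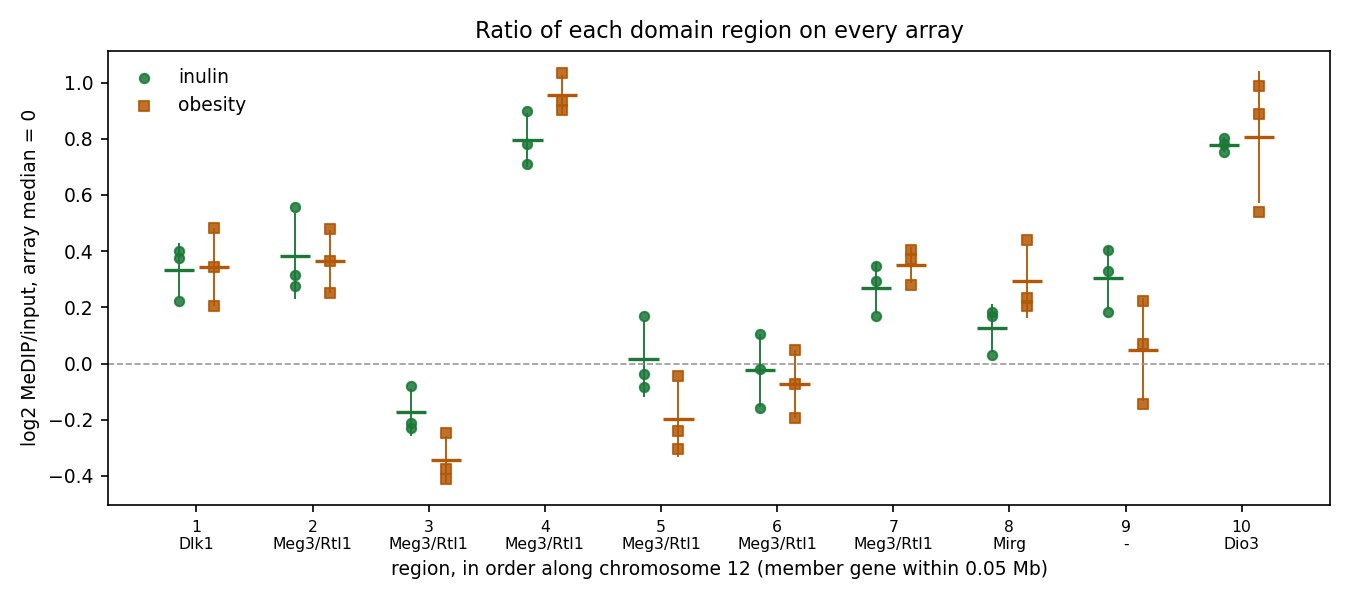
Log2 MeDIP over input ratio (vertical axis, array median at 0) of each of the 10 domain regions in order along chromosome 12 (horizontal axis). Points are single arrays, circles for inulin and squares for obesity, with horizontal lines at the group mean and vertical lines at 1 SD. Regions 4 and 10 are the highest in both groups. The groups do not overlap in regions 3, 4 and 8, but their nearest arrays are close, in region 4 almost equal.

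Dlk1, the growth regulator at the proximal end of the domain, was represented by region 1 (chr12:110690143-110692119, 9 probes). Its ratio was 0.22, 0.40 and 0.37 on inulin arrays 1 to 3 and 0.20, 0.48 and 0.35 on obesity arrays 1 to 3. The groups overlapped fully. The difference, inulin minus obesity, was -0.01 (SE 0.091, 95% interval -0.22 to 0.20, limma adjusted p = 0.955). Of the 8 probes of region 1 that could be tested, 4 were higher and 4 lower in the inulin group, with differences from -0.49 to 0.56. The lowest was at a probe that was not well above background in either channel on any array. When probes without input signal well above background were left out, the difference of region 1 was 0.06 (limma adjusted p = 0.709). A maximum gap of 300 bp broke this region into pieces of opposite direction. The piece of 4 probes at 110690686 to 110691390 differed by 0.23 (adjusted p = 0.206), and the piece of 3 probes at 110691663 to 110692119 by -0.22 (adjusted p = 0.474), so neither passed. The piece of 3 included that dim probe, and each piece held a probe with no value on at least 1 array.

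Near Meg3, the maternally expressed non-coding RNA, and Rtl1, 6 regions lay between 110777906 and 110842652, and none passed the test. Region 3 (chr12:110782317-110783933, 8 probes) was the nearest to the rounded position and had the lowest ratio of the domain. The values were -0.08, -0.23 and -0.21 on inulin arrays 1 to 3 and -0.25, -0.38 and -0.41 on obesity arrays 1 to 3. Every inulin array was thus above every obesity array, by a narrow margin. Inulin arrays 2 and 3 lacked a probe of the region whose ratio was above 0 on every other array, so the means rest on different probes. The difference was 0.17 (SE 0.079, 95% interval -0.0079 to 0.35, limma adjusted p = 0.192). It turned to -0.06 when the median of the probes replaced their mean. Its 4 most distal probes were all higher in the inulin group, by up to 1.01, and its 3 other tested probes were all lower, and none of them passed the test.

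Region 4 (chr12:110828462-110829106, 4 probes, all of 45 bp) had the highest ratio of the domain, above 97.4% of all regions. It measured 0.90, 0.78 and 0.71 on inulin arrays 1 to 3 and 0.90, 1.04 and 0.94 on obesity arrays 1 to 3. The groups did not overlap, although inulin array 1 and obesity array 1 were equal to the second decimal. Its difference was -0.16 (SE 0.079, 95% interval -0.34 to 0.017, limma adjusted p = 0.213). With the arrays put on an equal scale the difference was 0.03, and in the authors' deposited table it was 0.05, so its direction depended on the scaling.

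The other 4 regions near Meg3 and Rtl1 differed by 0.02 (region 2), 0.21 (region 5), 0.05 (region 6) and -0.08 (region 7), with adjusted p-values of 0.924, 0.187, 0.774 and 0.524 in the same limma fit. In region 2 (8 probes at 110777906 to 110779505) the groups overlapped, with inulin arrays from 0.28 to 0.56 and obesity arrays from 0.25 to 0.48. Region 5, with the largest of the 4 differences, had only 3 probes, of which 1 had MeDIP signal well above background. Regions 6 and 7 had 9 probes each and ratios from -0.19 to 0.10 and from 0.17 to 0.40 over the 6 arrays.

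Mirg, the microRNA host transcript, had region 8 nearest to it (chr12:110971900-110973589, 9 probes). The ratio was 0.03, 0.18 and 0.17 on inulin arrays 1 to 3 and 0.44, 0.20 and 0.23 on obesity arrays 1 to 3. All inulin arrays lay below all obesity arrays, and obesity array 1 stood highest. The difference of -0.17 was the largest toward lower ratios in the domain, just beyond that of region 4 (SE 0.088, 95% interval -0.36 to 0.032), and did not pass the test (limma adjusted p = 0.246). Without obesity array 1 it was -0.09, and region 4 was then the larger at -0.19. Of its 9 probes, 7 were lower in the inulin group. The sign was the same in all 16 alternative settings, from -0.29 to -0.04, and no setting gave an adjusted p under 0.05. MeDIP signal was well above background on every array at 6 of the 9 probes.

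Dio3, the thyroid hormone deiodinase gene at the distal end, was represented by region 10 (chr12:111515788-111517933), whose 10 probes were all 45 bp long. Its ratio exceeded that of 96.0% of all regions. It was 0.75, 0.78 and 0.80 on inulin arrays 1 to 3, and 0.89, 0.54 and 0.99 on obesity arrays 1 to 3. The obesity arrays lay on both sides of the inulin arrays and spread far more, with an SD of 0.23 beside 0.026 (n = 3 each). The difference was -0.03 (SE 0.11, 95% interval -0.28 to 0.22, limma adjusted p = 0.906). It was -0.16 without obesity array 2 and 0.07 without obesity array 3, so its direction rested on single arrays. MeDIP signal was well above background on every array at 8 of the 10 probes, and input signal at 6.

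Region 9 (chr12:111395784-111397141, 7 probes), between Mirg and Dio3, had the largest difference toward higher ratios. It measured 0.40, 0.33 and 0.18 on inulin arrays 1 to 3 and 0.07, 0.22 and -0.14 on obesity arrays 1 to 3. Inulin array 3 lay below obesity array 2, so the groups overlapped. The difference was 0.26 (SE 0.10, 95% interval 0.021 to 0.49, limma adjusted p = 0.146), and this was the single domain region with an unadjusted p under 0.05. It shrank to -0.0014 when probes without input signal well above background were left out, and to -0.0073 after normexp background correction. Leaving out obesity array 2 gave it an adjusted p of 0.053, the lowest of any domain region named here over the alternatives run.

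The 3 inulin arrays and the 3 obesity arrays did not overlap in 3 of 10 domain regions (30.0%), where the share over all regions was 35.0%.

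**Figure D2:**
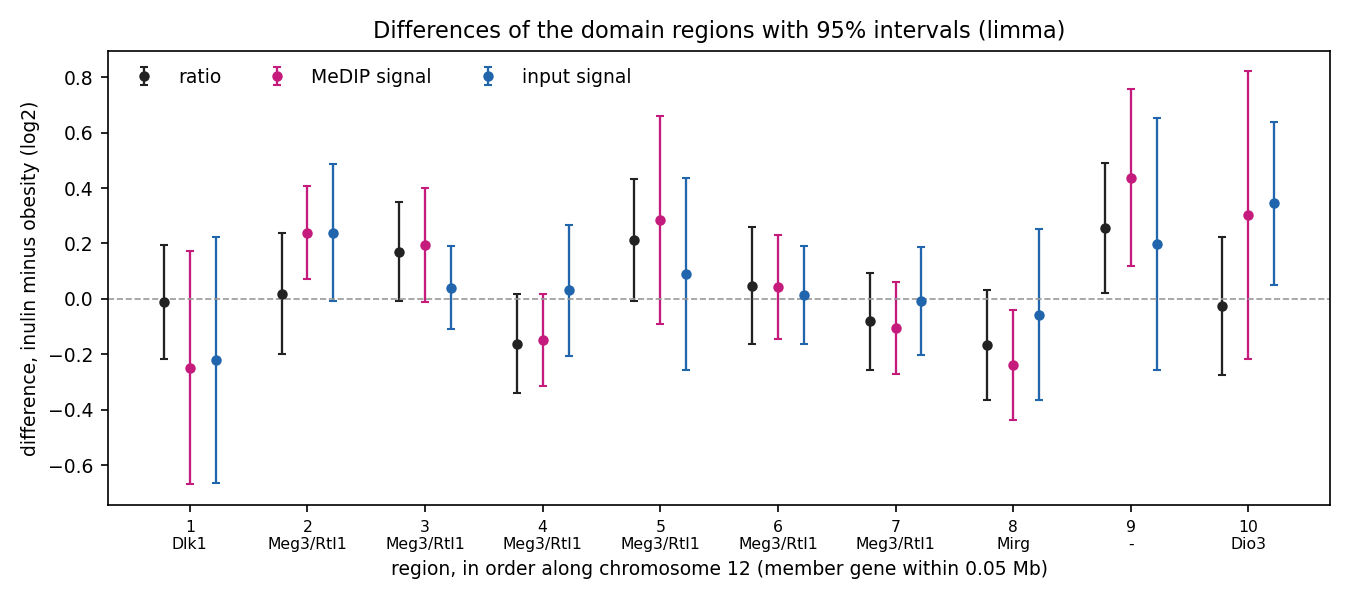
Difference between the groups, inulin minus obesity (vertical axis, log2), for the ratio, the MeDIP signal and the input signal of each domain region (horizontal axis), with 95% intervals from limma. All intervals of the ratio include 0 except that of region 9, and none of the 30 differences passed adjustment.

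The ratio combines both channels, and each was tested alone. In the MeDIP channel 0 of 10 domain regions passed the limma test, where 0.253% of all regions did, and 3 had an unadjusted p under 0.05 (21.0% of all regions). In the input channel, the control DNA that underwent no immunoprecipitation, 0 passed, where 2.14% of all regions did, and 1 had an unadjusted p under 0.05 (24.4%). The median difference over the domain was 0.12 in the MeDIP signal, beside 0.066 over all regions, and 0.035 in the input signal, beside 0.043. MeDIP values of the groups did not overlap in 7 of 10 domain regions, where 32.0% of all regions did not. For input that held in 1 of 10, where the share over all regions was 34.2%. The MeDIP separations went both ways, higher in the inulin group in regions 2, 3, 5 and 9 and lower in regions 4, 7 and 8. They were narrow in region 3 (nearest arrays 0.33 and 0.32) and in region 5 (-1.98 and -1.99). Region 5 had 1 probe with MeDIP signal well above background, and the means of region 3 rest on different probes.

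Region 2 near Meg3 and Rtl1 had the lowest adjusted p in the MeDIP channel. Its MeDIP signal was 1.73, 1.71 and 1.70 on inulin arrays 1 to 3 and 1.54, 1.45 and 1.44 on obesity arrays 1 to 3. Replicates lay close together and the groups apart, with a difference of 0.24 (SE 0.069, limma adjusted p = 0.144). Its input signal moved by the same amount, 0.24 (SE 0.10, adjusted p = 0.218), which left its ratio at a difference of 0.02. In region 9 the inulin group was higher by 0.44 in MeDIP signal (adjusted p = 0.153) and by 0.20 in input (adjusted p = 0.554). Obesity array 2 lacks the bright probe Ch_220697_0025879 of that region, and without the array the differences were 0.31 and -0.02. In region 8 near Mirg the MeDIP signal was lower by 0.24 (adjusted p = 0.182), with an input difference of -0.06 (adjusted p = 0.817).

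At Dio3 the input signal was the one that separated the groups. It was -0.69, -0.78 and -0.53 on inulin arrays 1 to 3 and -0.88, -1.25 and -0.90 on obesity arrays 1 to 3. The difference was 0.34 (SE 0.12, limma adjusted p = 0.157), and 0.23 without obesity array 2. Input signal was well above background on every array at 6 of the 10 probes of that region, so the means include dim probes. The MeDIP signal was 0.12, 0.07 and 0.32 on inulin arrays 1 to 3 and 0.06, -0.63 and 0.17 on obesity arrays 1 to 3. Its difference of 0.30 (adjusted p = 0.449) was 0.05 without obesity array 2, which stood far below the others. At Dlk1 both channels were lower in the inulin group, by 0.25 for MeDIP (adjusted p = 0.443) and 0.22 for input (adjusted p = 0.502), and inulin array 3 was the lowest array in both. That array lacks Ch_220697_0025824, a bright probe of the region dropped there as an outlier spot, and without the array the differences were -0.07 for MeDIP and -0.02 for input. Another bright probe of the region had values on obesity arrays 1 and 2 but not on inulin arrays 1 and 2. The means without inulin array 3 thus still rest on different probes.

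**Figure D3:**
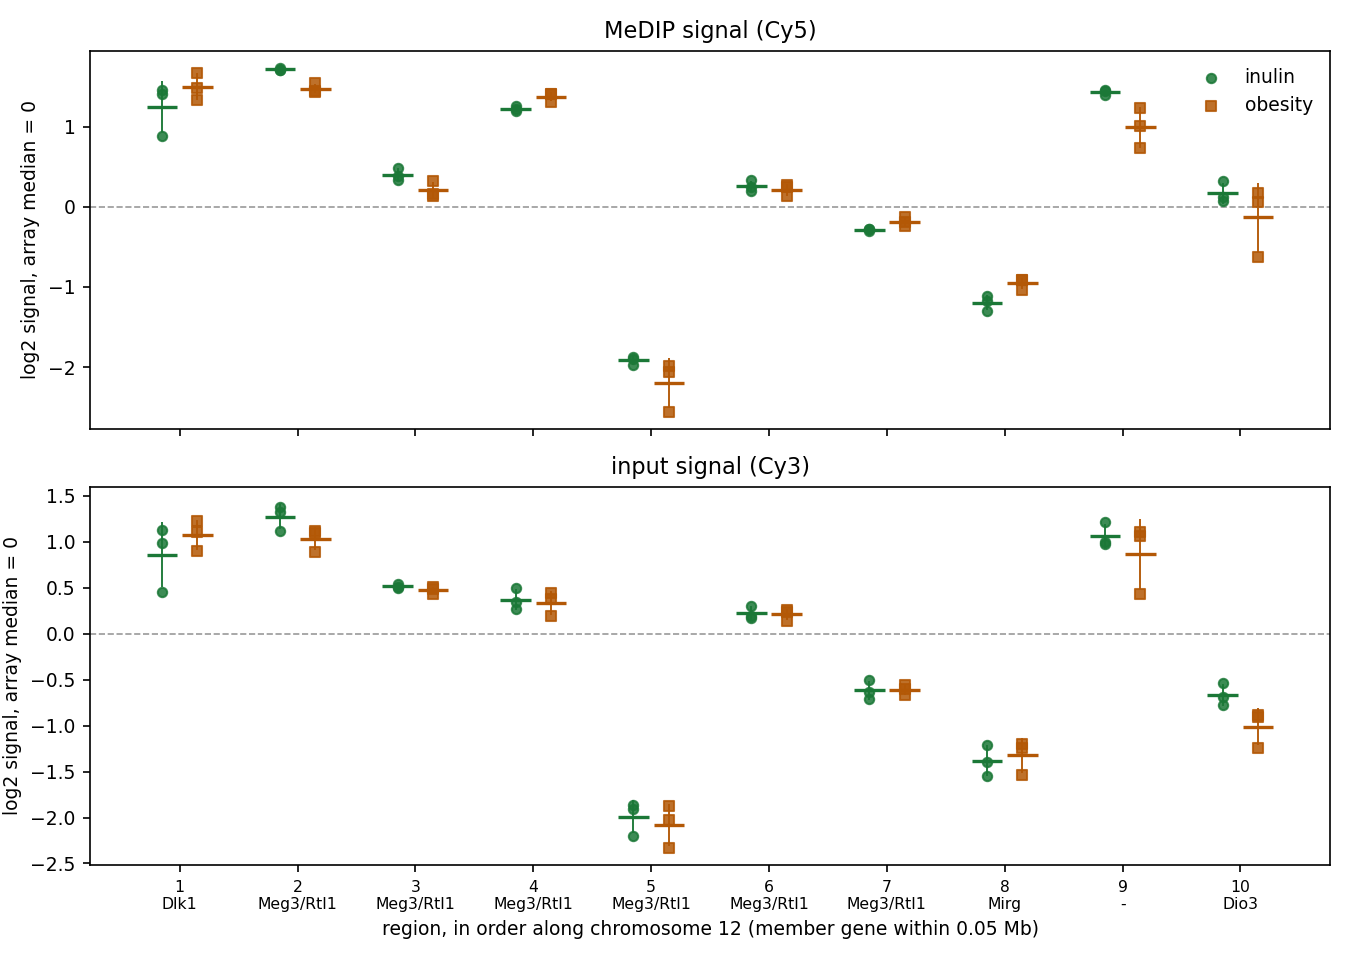
MeDIP signal (upper panel) and input signal (lower panel) of each domain region, both as log2 signal with the array median at 0 (vertical axes). Points are single arrays with group means and 1 SD, circles for inulin and squares for obesity. The groups do not overlap in 7 of the 10 regions in the upper panel and in region 10 alone in the lower panel. In regions 3 and 5 of the upper panel their nearest arrays are almost equal.

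At single probes, 3 of the 73 domain probes that could be tested passed (4.11%), where 8.21% of all 170019 tested probes passed. Another 3 probes, in regions 1, 3 and 9, lacked values after spots marked as outliers were dropped. A total of 20 of the 73 had an unadjusted p under 0.05, where 30.1% of all probes did. Of the 73, 34 were higher and 39 lower in the inulin group, and their median difference was -0.05, beside -0.0020 over all probes. Of the 3 calls, 2 were higher and 1 lower in the inulin group, where 5.12% of all probes were called higher and 3.08% lower, and on an equal scale of the arrays 2 were called, both higher. Calls at this level moved with the setting, from 0 to 10 domain probes over the alternatives, and leaving out 1 array at a time gave 0 in every case but obesity array 2 (7 calls) and obesity array 3 (1 call).

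In region 7 near Meg3 and Rtl1, probe Ch_220697_0025857 (chr12:110840860-110840905) was lower in the inulin group. Its ratio was 0.28, 0.28 and 0.20 on inulin arrays 1 to 3 and 0.71, 0.73 and 0.67 on obesity arrays 1 to 3. The groups were far apart relative to their spread. The difference was -0.45 (SE 0.10, limma adjusted p = 0.0435). The inulin group was lower by 0.61 in MeDIP signal and by 0.14 in input. The other 8 probes of region 7 did not pass, and 5 of its 9 probes were higher in the inulin group. The adjusted p of Ch_220697_0025857 was 0.201 with the slide as a random block, and leaving out any 1 array gave between 0.0501 and 0.147. On an equal scale of the arrays its difference was -0.35 (limma adjusted p = 0.0907). It passed in 3 of 15 alternative settings.

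In region 9, probe Ch_220697_0025879 (chr12:111396688-111396732) was higher in the inulin group. It measured 0.28, 0.24 and 0.13 on inulin arrays 1 to 3 and -0.38 and -0.60 on obesity arrays 1 and 3. Obesity array 2 was dropped as an outlier spot, so the fit rests on 5 arrays. The difference was 0.71 (SE 0.14, limma adjusted p = 0.0374). Both channels were lower in the inulin group, by 0.50 for MeDIP and by 1.19 for input, so the higher ratio goes with a lower input. With the slide as a random block its adjusted p was 0.183. The other passing probe of region 9, Ch_220697_0025875 (chr12:111395784-111395843, adjusted p = 0.0235), was not well above background in either channel on any array, and no size is given for it.

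**Figure D4:**
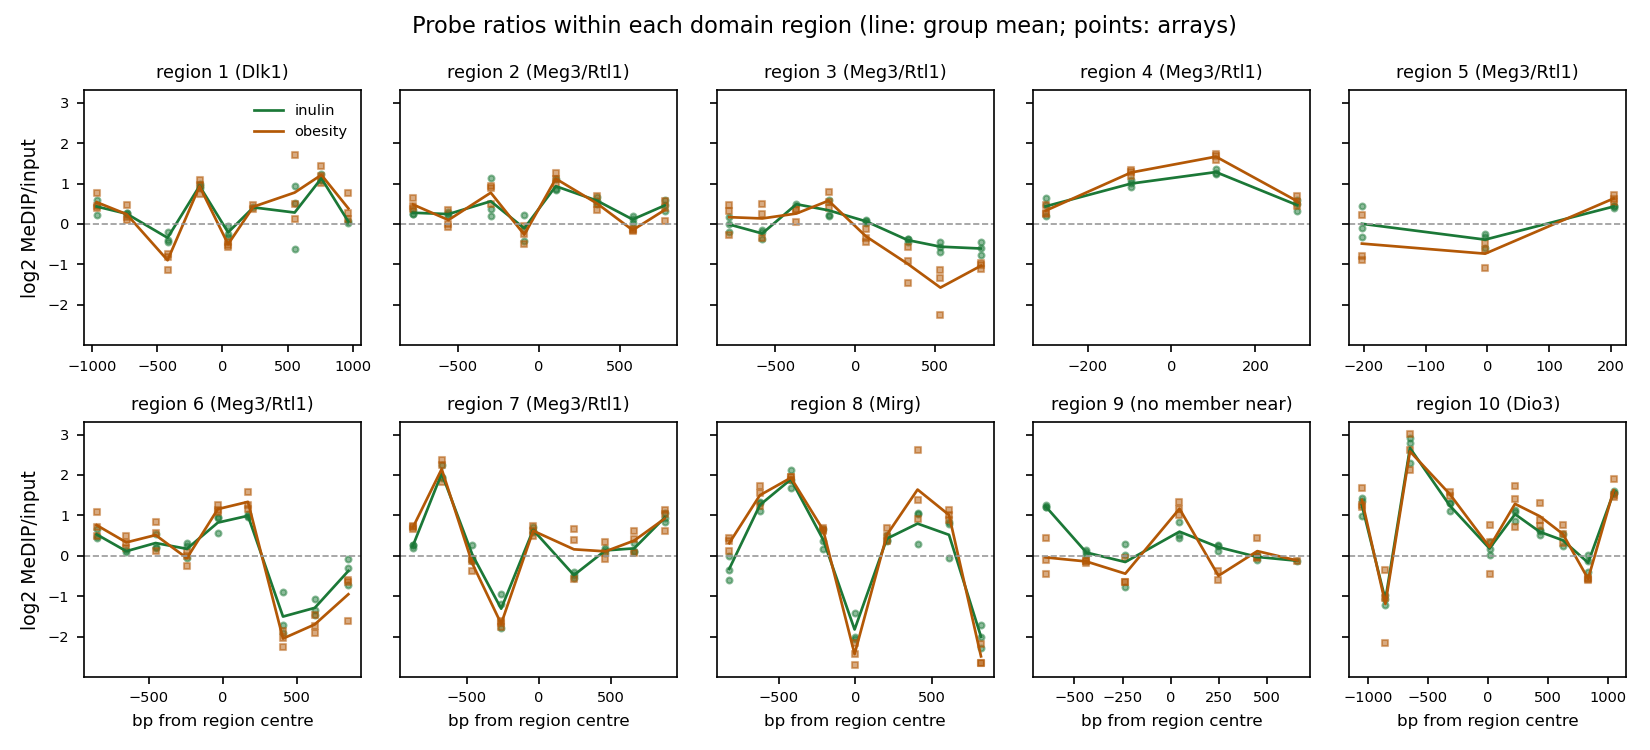
Log2 MeDIP over input ratio of each probe (vertical axis) against its distance in bp from the centre of its region (horizontal axis), 1 panel per domain region. Points are arrays and lines group means, circles for inulin and squares for obesity. The group lines run close together in most panels, and in region 9 they part at single probes, among them Ch_220697_0025879 with 0.21 in inulin and -0.49 in obesity.

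Signal over background varied among the domain probes. Of the 76 probes, 61 had MeDIP signal well above background on all arrays (80.3%, beside 73.5% of all probes) and 66 had such input signal (86.8%, beside 92.0%). MeDIP signal was above background on no array at 10 probes. The largest difference between groups at a tested domain probe with both channels above background on all arrays was 1.01, in region 3, and it did not pass the test. After outlier spots were dropped, 8 domain probes lacked a value on at least 1 array, so the mean of a region could rest on different probes in different arrays.

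Testing the channels at single probes, a step added after the data had been seen, called 8 of 73 domain probes in the MeDIP channel (10.6% of all probes) and 13 of 73 in the input channel (13.7% of all probes). In 5 probes both channels were called, in each case in the same direction, and none of those 5 was called on the ratio. They lay near Dlk1 (1 probe), near Meg3 and Rtl1 (2 probes, both in region 2), in region 9 (1 probe) and near Dio3 (1 probe). The probe near Dio3 had MeDIP signal well above background on 0 of 6 arrays and such input signal on the 3 inulin arrays only, so its levels are bounds. The clearest was Ch_220697_0025880 in region 9. Its MeDIP signal was 5.54, 5.14 and 5.50 on inulin arrays 1 to 3 and 3.71, 2.97 and 3.62 on obesity arrays 1 to 3. Its input signal was 5.48, 5.18 and 5.44 on those inulin arrays and 3.68, 2.45 and 3.60 on those obesity arrays. Both channels were brighter by a similar amount in the inulin group, by 1.96 and 2.12 (limma adjusted p = 0.00621 and 0.00554), and the ratio differed by -0.14 (adjusted p = 0.573). At Dlk1, Ch_220697_0025824 was brighter by 1.20 in MeDIP and 1.54 in input, with inulin array 3 dropped as an outlier.

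Differences at domain probes went with the height of the ratio. Of the 25 tested probes whose mean ratio was below 0, 22 were higher in the inulin group (88.0%, beside 71.1% of all probes below 0), and of the 48 above 0, 36 were lower (75.0%, beside 71.5%). Ratios of the obesity arrays were spread more widely over the domain probes, with interquartile ranges of 1.16, 1.28 and 1.13 against 0.75, 0.998 and 0.87 on the inulin arrays, as they were over the whole array. On an equal scale 20 of the 25 were still higher (80.0%, beside 49.2%) and 26 of the 48 lower (54.2%, beside 44.5%). Pearson's r across the 73 probes between mean ratio and difference was -0.56 with median centring and -0.05 on an equal scale. Over all probes it was -0.49 and 0.13. The probes share arrays and neighbours share fragments, so r is a description without a test.

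**Figure D5:**
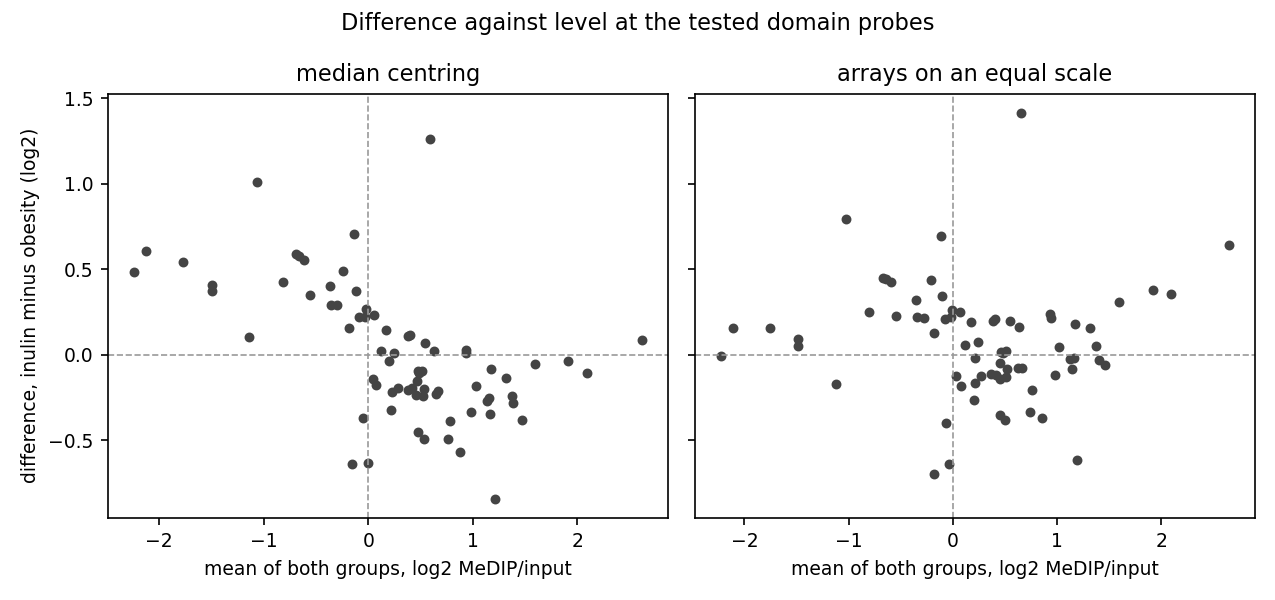
Difference between groups, inulin minus obesity (vertical axis, log2), against the mean of both groups' log2 MeDIP over input ratio (horizontal axis) for the 73 tested domain probes, with median centring (left) and after the arrays were brought to an equal scale (right). Each point is 1 probe. The slope on the left, with r of -0.56, is nearly flat on the right, with r of -0.05.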

How the data were processed

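DNA of 3 inulin and 3 obesity offspring samples was hybridised as MeDIP (Cy5) and input (Cy3) DNA to 2-colour Agilent arrays, grouped by the sample titles. Per the file headers, the deposited intensity values are processed signals of Feature Extraction 11.0.1.1 (protocol ChIP_1100_Jul11) on build mm9. The deposited log10 ratio of red over green was read only to check the direction of the ratio. The authors' deposited series table was treated as a score, since its scale and centring are unknown. It ran the same way as the ratios (r from 0.866 to 0.912 over probes), with column medians from 0.043 to 0.061.

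Control and outlier spots were left out (1901 to 4863 outliers per array), log2 of red over green was taken, and each array was centred on its median. Saturated spots were kept. Probes and regions (means of their probes) with values on at least 2 arrays per group were fitted with limma 3.58.1 (lmFit, eBayes, two-sided, R 4.3.3) over the whole array, p-values adjusted by Benjamini-Hochberg and called under 0.05. The fits were tested on simulated data. Precision is limited by the 3 arrays per group.

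Domain members and gene lists were chosen with earlier results of these data known. Regions given in full were those nearest to each gene, of highest and lowest ratio, and of largest difference in each direction. Probes named were those that passed, besides 2 chosen after their values were seen (Ch_220697_0025880 and Ch_220697_0025824). Deviations of same-numbered arrays correlated at -0.14, 0.28 and 0.33, and those of differently numbered arrays at -0.38 to 0.22. The numbers were not taken as pairs, since the labels do not say that they pair the samples. Alternatives covered background correction, loess, equal scale, quantile normalization, the deposited table, filters on dim probes, slide and replicate blocks, region gaps, probe medians and leaving out each array.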

Additional observations from a re-analysis of the deposited data

How the results depend on the processing

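On the ratio, the MeDIP signal and the input signal, 0 domain regions passed under every alternative run, in the limma fits with Benjamini-Hochberg adjustment. With the slide as a random block, or without any 1 inulin array, 0 of all regions of the array passed on the ratio as well.

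Calls at single probes depended on the setting. Against 3 domain probes at first, normexp background correction gave 10, loess 7, quantile normalization 1, 0 in the authors' deposited table, probes with input well above background 5, probes with both channels well above background 8, and the slide as a random block 0 (slide correlation 0.35). Over all probes the same settings called 16.3%, 12.5%, 2.7%, 2.88%, 10.2%, 13.1% and 0.159%. An equal scale gave 2 domain probes. Leaving out 1 array at a time gave 0 to 7, the 7 without obesity array 2. The cause of these shifts was not tested.

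The replicate number as a block gave 2 domain probes and 0 domain regions. The labels do not say whether the numbers pair the samples.

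The median difference of the domain regions, 0.0041, was 0.087 on an equal scale and between -0.014 and 0.067 with 1 array left out, the latter without obesity array 2. It was -0.049 with the median of the probes and -0.032 after normexp background correction. Region 8 near Mirg kept its sign in all 16 alternatives. The sign turned in 8 of 16 for region 1 near Dlk1, 5 of 16 for region 10 near Dio3 and for regions 2 and 6, 3 of 16 for region 9, 2 of 16 for region 4, and 1 each for regions 3, 5 and 7. Region 5 had no value with probes above background alone, and Ch_220697_0025879 had none without obesity array 1 or 3. In the MeDIP channel 61 of the 76 probes were well above background on all arrays.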
